A study of Homo sapiens with 18 samples.

Results

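NF-κB is a family of dimeric transcription factors that switch on inflammatory, survival and stress genes. In resting cells the dimers are held in the cytoplasm by inhibitors of the IκB family. Signals from cytokine and pattern recognition receptors activate the IκB kinase complex, the inhibitor is degraded and the dimers enter the nucleus. There they induce, among other genes, those of their own subunits and inhibitors, which gives the pathway its negative feedback. In hepatocytes the pathway is known for its activation in steatohepatitis and for its protection of the cells from death.

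The genes described here are 10 named members of this pathway among the 36684 gene symbols of the count table. They are the subunit genes NFKB1, NFKB2, RELA and RELB, the inhibitor genes NFKBIA and TNFAIP3, and the target genes TNFAIP2, BIRC3, ICAM1 and IER3. They were listed by name for their place in the pathway, and all 10 passed the filter on low counts that left 14557 genes to be tested. The list was drawn up with earlier results of these data known. The shares of all genes set beside its counts are therefore a description only.

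RNA was sequenced from Hep3B, a human hepatoma cell line, in 6 groups of 3 libraries. The groups were an untreated control (Con), cells loaded with free fatty acids (FFA) as a steatosis model (Model), FFA-loaded cells given fucoxanthin (FUCO), a marine carotenoid, at 0.5, 1 or 2 μM (FUCO-0.5, FUCO-1 and FUCO-2), and FFA-loaded cells given Resmetirom (RES), a thyroid hormone receptor β agonist. The FFA concentration, the treatment times and the RES dose of these libraries are not given in the sources used here, and a single tumor-derived line stands for the hepatocyte. The study's methods call the 3 libraries of a group biological replicates, without saying how the cultures were separated, so the p-values measure the spread between these libraries.

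Each library held from 16916688 to 23083498 counts in total, and the 10 genes together took between 0.0508% and 0.128% of them. All 10 hepatoma and hepatocyte markers looked up had a mean above 1 CPM (a library's counts divided by its normalized depth) over the 18 libraries. Their summed level lay between 64182 and 72081 CPM in Con, between 53326 and 53714 CPM in Model, between 44562 and 56158 CPM in FUCO-0.5, between 47495 and 49968 CPM in FUCO-1, between 35961 and 40520 CPM in FUCO-2 and between 15421 and 15849 CPM in RES. Of 8 macrophage and leukocyte markers only CD14 and LYZ had a mean above 1 CPM over the 18 libraries, CD163 was at 0 in every library, and the summed level was 5.84 to 8.03 CPM in Con and 16.46 to 22.03 CPM in Model. None of 6 endothelial markers reached it (0.162 to 1.99 CPM summed over all groups, with CDH5, KDR and ERG at 0), and 3 of 7 stellate cell markers did, with a sum of 28.1 to 36.6 CPM in Con and 11.3 to 13.8 CPM in RES and with COL3A1 and ACTA2 at 0. The part of these shifts in the results that follow was not tested.

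Binding sites of NF-κB in promoters follow a loose 10-base pattern, the κB consensus. It was searched as GGGRNNYYCC, where R is A or G, Y is C or T and N is any base. The search covered both strands of the promoter windows of the RefSeq table for GRCh38.p14, each running from 250 bases before to 50 bases after an annotated start. A total of 12 windows of 8 of the 10 genes were in the table. At least 1 match was found in windows of NFKB1, NFKB2, NFKBIA, TNFAIP3 and BIRC3, which is 5 of the 8 genes and 6 of the 12 windows, and in 11.3% of all 35116 windows of the same length. The sequences before the starts of NFKBIA (chr14:35404750-35404999, minus strand) and BIRC3 (chr11:102317234-102317483, plus strand) are shown because BIRC3 had the largest rise described below and NFKBIA is the inhibitor that the pathway itself induces. Both run 5′ to 3′ toward the start on the gene's own strand, hold no exon base of the gene, and have the κB matches in capitals. In both genes the matches read GGGRNNYYCC on the opposite strand, so the capitals show the reverse complement of the pattern.
NFKBIA: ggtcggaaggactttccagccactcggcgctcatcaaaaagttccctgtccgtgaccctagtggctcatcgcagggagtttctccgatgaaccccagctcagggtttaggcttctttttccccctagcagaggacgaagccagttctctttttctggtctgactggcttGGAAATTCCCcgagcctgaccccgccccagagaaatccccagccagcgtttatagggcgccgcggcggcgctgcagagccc
BIRC3: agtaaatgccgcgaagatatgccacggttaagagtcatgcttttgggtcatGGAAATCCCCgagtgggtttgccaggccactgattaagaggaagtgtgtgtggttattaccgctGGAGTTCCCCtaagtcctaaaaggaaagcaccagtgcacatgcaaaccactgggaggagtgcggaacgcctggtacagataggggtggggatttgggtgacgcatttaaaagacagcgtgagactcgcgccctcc

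The NFKBIA match lay 81 to 72 bases before the start, and the BIRC3 matches 199 to 190 and 135 to 126 bases before it. In TNFAIP3 a pair of matches stood 2 bases apart, 67 to 46 bases before the start (chr6:137867192-137867213). The stretch is shown on the plus strand, the gene's own, with the bases between the matches in lower case. Both matches read GGGRNNYYCC on the opposite strand.
TNFAIP3: GGAAAGTCCCgtGGAAATCCCC

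The subunit genes NFKB1 (chr4:102501310-102501319, plus strand, 49 to 40 bases before the start) and NFKB2 (chr10:102394471-102394481 and chr10:102395684-102395693, plus strand) held matches as well. They are shown to set the genes of the subunits beside those of the inhibitors. The NFKB2 stretch at -107 to -97 holds 2 matches that overlap by all but 1 base, and NFKB2 had further matches 78 to 69 bases before the same start (start 2) and 176 to 167 bases before its start 3. All 250 bases before start 2 lie within annotated exons of NFKB2 itself. Before start 3 of NFKB2 12 of the 250 bases do, and before the NFKB1 start 29 lie in NFKB1 exons.
NFKB1: GGGAATTTCC
NFKB2, 107 to 97 bases before start 2: GGGAATTCCCC
NFKB2, 21 to 12 bases before start 3: GGGACTTTCC

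Other motifs were searched in the same windows. The GC box, GGGCGG, was in windows of 7 of the 8 genes against 45% of all windows, the TATA motif, TATAAA, in those of NFKBIA and ICAM1 against 11.5%, and the AP-1 motif, TGANTCA, in those of none against 7.71%. The GC box did not overlap a κB match in any window shown. A match is a run of letters and not evidence of binding. The windows of RELA, TNFAIP2 and ICAM1 held no match to GGGRNNYYCC. Near matches were not counted, so this does not show that these promoters lack a κB site. The windows of RELB and IER3 were not analysed here.

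**Figure D1:**
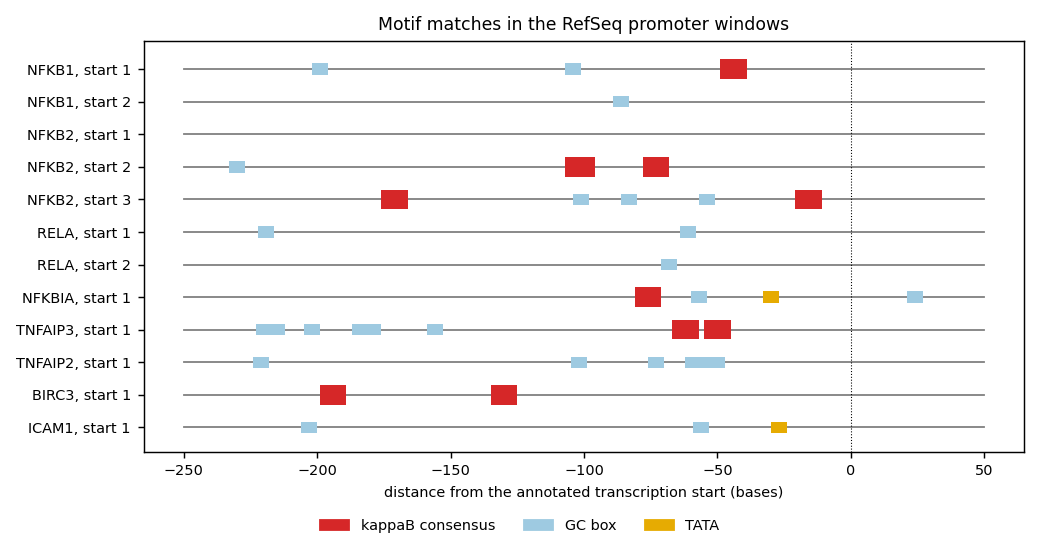
Position of motif matches (colored blocks) in bases from the annotated transcription start in 12 promoter windows of 8 genes. The κB matches (red) of NFKBIA, TNFAIP3 and NFKB1 lie within 81 bases before the start, those of BIRC3 farther out, and the windows of RELA, TNFAIP2 and ICAM1 show none.

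The first comparison, Model against Con, asks what fatty acid loading did to the pathway. All of the inhibitor and target genes were higher in Model, as was 1 subunit gene, NFKB2, while NFKB1, RELA and RELB did not pass the test. With edgeR's quasi-likelihood test on all 18 libraries, 7 of the 10 genes were called higher and 0 lower at an adjusted p under 0.05, where 8.43% of all genes tested were called higher and 9.12% lower. The 7 called genes were also the 7 whose Model libraries all lay above all Con libraries, a separation in either direction that 35.7% of all genes had. The median log2 fold change of the 10 genes was 0.73, against 0.0011 over all genes. Past the study's further threshold of an absolute log2 fold change over 1 were 3 of the 10, against 1.95% of all genes.

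BIRC3, which encodes a ubiquitin ligase that keeps TNF receptor signaling on the survival path (chr11:102317484-102339403, plus strand, 9 exons in the MANE transcript), gave the largest rise of the 10. Its level was 4.28, 3.46 and 4.81 CPM in Con, from 58 to 89 counts per library, and 12.89, 16.02 and 16.08 CPM in Model. The groups were far apart, and the log2 fold change was 1.83 ± 0.26 (SE), or 3.57-fold, with an adjusted p of 2.1e-05 by edgeR's quasi-likelihood test, as for all adjusted p-values that follow. Errors of log2 fold changes are standard errors throughout.

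TNFAIP3 encodes a ubiquitin-editing enzyme that ends signaling upstream of the IκB kinases (chr6:137866349-137883312, plus strand, 9 exons). It was at 37.5, 24.2 and 24.2 CPM in Con and at 61.3, 71.2 and 67.0 CPM in Model. Con replicate 1 was the high one of its group, more than 1.5-fold above both others, and still lay below every Model library. The log2 fold change was 1.22 ± 0.25 (SE; adjusted p = 0.0012) and 1.46 without that library.

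NFKBIA, the gene of IκBα, the inhibitor that NF-κB itself induces (chr14:35401513-35404749, minus strand, 6 exons), had 106, 78.0 and 76.7 CPM in Con and 161, 183 and 174 CPM in Model. It about doubled, with no overlap between the groups (log2 fold change 0.99 ± 0.19, adjusted p = 0.00066).

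IER3, an immediate early gene that affects cell survival (chr6:30743199-30744547, minus strand, 2 exons), was low in Con at 9.71, 5.85 and 6.44 CPM and rose to 13.98, 16.19 and 17.82 CPM in Model. Con replicate 1 was again the high library of its group, and the log2 fold change of 1.13 ± 0.21 (SE; adjusted p = 0.00050) became 1.38 without it. Of the exon bases of IER3, 32.6% overlap a noncoding gene on the opposite strand, IER3-AS1, and 6.30% another, HCG20. The sources used here do not state whether counting used the strand. These noncoding genes had 3 and 16 counts over all 18 libraries against 3705 for IER3. Such counts do not show how reads in the shared bases were assigned, and an effect of the overlap was not tested.

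ICAM1 encodes an adhesion molecule that binds leukocyte integrins (chr19:10271120-10286615, plus strand, 7 exons), and TNFAIP2 a cytoplasmic protein induced by TNF (chr14:103121469-103137439, plus strand, 12 exons). ICAM1 was at 142, 120 and 131 CPM in Con and 205, 246 and 209 CPM in Model, with 0.75 ± 0.14 for the log2 fold change (SE; adjusted p = 0.00054). An antisense gene, ICAM4-AS1, shares 23.6% of the ICAM1 exon bases. TNFAIP2 was at 77.6, 85.9 and 88.5 CPM in Con and at 138, 147 and 128 CPM in Model, with the smallest standard error of the called genes (log2 fold change 0.71 ± 0.10 (SE), adjusted p = 1.8e-05).

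Among the subunit genes, NFKB2, whose product is processed in the noncanonical branch of the pathway (chr10:102394110-102402529, plus strand, 23 exons), was at 46.5, 35.3 and 37.6 CPM in Con and 53.6, 59.6 and 48.9 CPM in Model. Every Model library was above every Con library, but by little (log2 fold change 0.44 ± 0.12, adjusted p = 0.013). The call was lost when Con replicate 2 (adjusted p = 0.086), Con replicate 3 (0.066) or Model replicate 2 (0.081) was left out.

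NFKB1, the precursor of the canonical DNA-binding subunit (chr4:102501359-102617302, plus strand, 24 exons), was at 53.6, 49.4 and 49.0 CPM in Con and 58.6, 60.4 and 53.5 CPM in Model, so the groups overlapped only at their edges, with a log2 fold change of 0.18 (95% confidence interval -0.015 to 0.38, adjusted p = 0.20). RELB, the partner of the processed NFKB2 product (chr19:45001464-45038192, plus strand, 12 exons), had 30.8, 25.4 and 24.3 CPM in Con and 32.4, 34.7 and 29.4 CPM in Model, and its interval ran from -0.034 to 0.56. RELA, the gene of the main transactivating subunit (chr11:65653601-65663857, minus strand, 11 exons), had 124, 117 and 115 CPM in Con and between 115 and 117 CPM in Model. Its interval, -0.18 to 0.12, was the narrowest of the 10, and for RELA no difference was detectable at this depth.

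**Figure D2:**
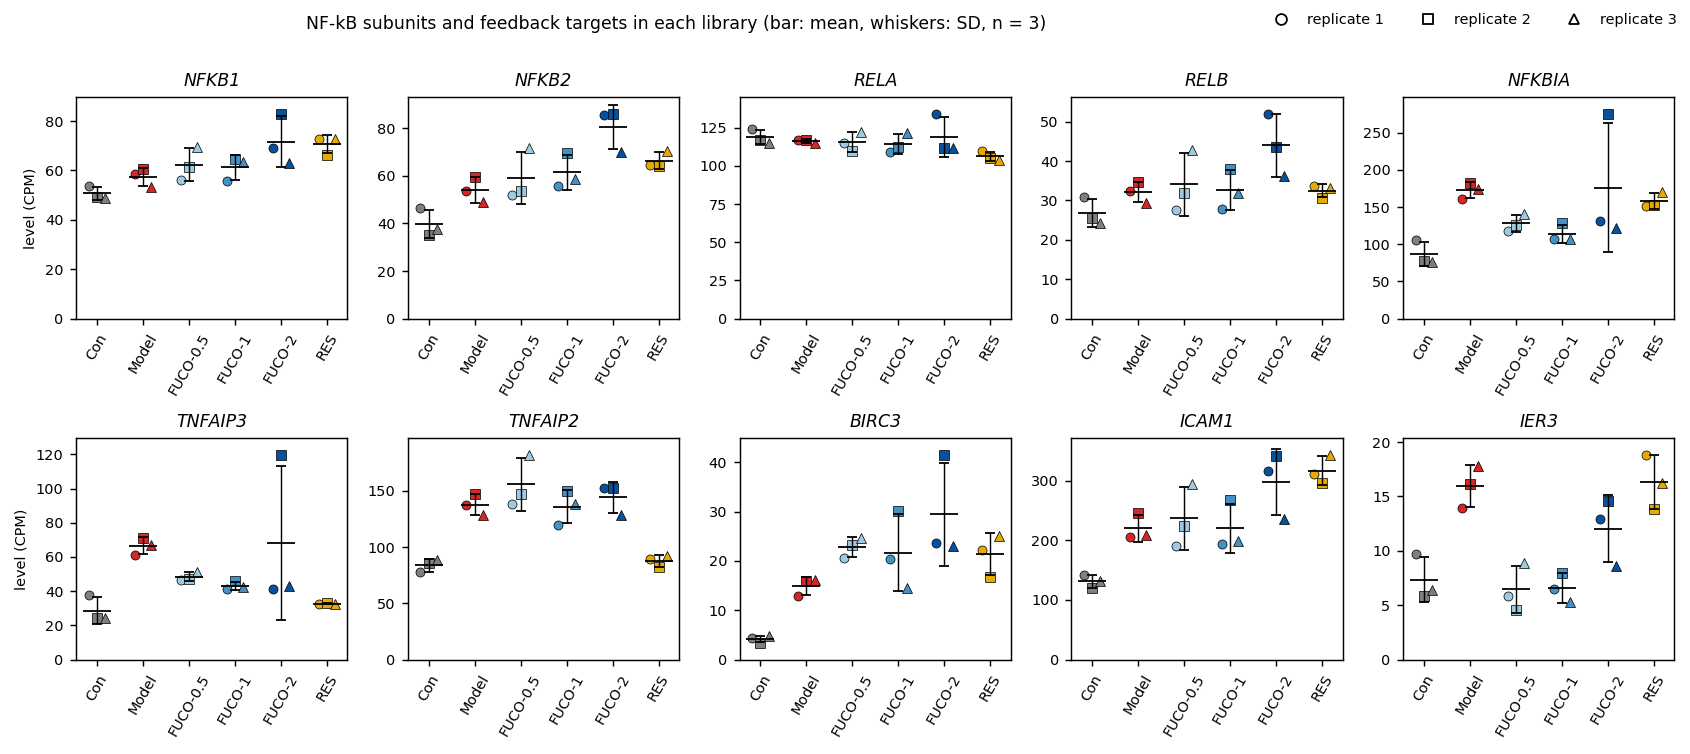
Level of each gene in CPM (vertical axis, from 0) in the 18 libraries by group (horizontal axis), one point per library, with mean and SD (n = 3). BIRC3, NFKBIA, TNFAIP3, TNFAIP2, ICAM1 and IER3 are higher in all Model than in all Con libraries, RELA stays between 104 and 134 CPM throughout, and FUCO-2 replicate 2 (square) stands above its group for NFKBIA, TNFAIP3 and BIRC3.

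Levels can be set between genes only per length. Per kilobase of the MANE transcript in Model, the inhibitor NFKBIA had 111 ± 6.997 CPM and ICAM1 74.1 ± 7.57 CPM (SD, n = 3), while RELA had 46.2 ± 0.446 CPM, NFKB1 14.2 ± 0.889 CPM and BIRC3, the lowest, 2.18 ± 0.266 CPM. BIRC3 was also the lowest per kilobase of all annotated exons, at 2.00 ± 0.244 CPM. On that scale the order of the top pair turned, with ICAM1 at 63.8 ± 6.51 CPM and NFKBIA at 50.9 ± 3.21 CPM, so their order rests on which exons are counted. In bulk RNA more transcript per cell cannot be told apart from more cells with the transcript.

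The next comparisons ask what FUCO did to FFA-loaded cells. They share the 3 Model libraries with the first comparison and with one another, so a high or low Model library enters all of them. At 0.5 μM only IER3 was called, as lower, 1 of 10 genes against 1.16% of all genes called lower, and none of the 10 was called higher against 0.289%. At 1 μM the same was found, IER3 alone lower against 2.32% of all genes, and 0 of 10 higher against 0.893%. IER3 also passed the fold threshold in both, which 0.268% of all genes did at 0.5 μM and 0.495% at 1 μM. Counting genes whose libraries did not overlap Model in either direction gave 4 of the 10 at 0.5 μM (19.6% of all genes) and 3 of the 10 at 1 μM (23.3%).

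IER3 was at 5.87, 4.60 and 8.87 CPM in FUCO-0.5 and at 6.54, 7.98 and 5.26 CPM in FUCO-1. All 6 libraries lay below the 3 Model libraries (13.98 to 17.82 CPM) and within or below the range of Con (5.85 to 9.71 CPM). The log2 fold change against Model was -1.31 ± 0.21 (SE; adjusted p = 0.00059) at 0.5 μM and -1.28 ± 0.21 (adjusted p = 0.00051) at 1 μM, and against Con -0.19 (95% confidence interval -0.66 to 0.28) and -0.15 (-0.62 to 0.32).

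The inhibitor genes were lower too at these doses. NFKBIA was at 117, 126 and 140 CPM in FUCO-0.5 and at 107, 128 and 107 CPM in FUCO-1, and all 6 libraries lay below the lowest Model library (161 CPM) and above the highest Con library (106 CPM). TNFAIP3 was at 46.6, 47.2 and 51.4 CPM in FUCO-0.5 and at 41.5, 45.9 and 42.2 CPM in FUCO-1, again below all of Model (61.3 CPM or more) and above all of Con (37.5 CPM or less). Both genes thus sat between the levels of Con and Model. In the fit of all 18 libraries these differences were not called. The log2 fold changes of NFKBIA were -0.43 (adjusted p = 0.37) and -0.60 (adjusted p = 0.084) at 0.5 and 1 μM, and those of TNFAIP3 -0.46 (adjusted p = 0.48) and -0.62 (adjusted p = 0.17).

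The spread that those p-values rest on is shared by all groups, and for these genes FUCO-2 replicate 2 stood far from its group (below). Without that library the fold changes hardly moved and all 4 differences were called, with adjusted p-values of 0.026 and 0.00077 for NFKBIA and 0.028 and 0.0011 for TNFAIP3 at 0.5 and 1 μM. Each library was left out in turn, and this one is singled out for its values of these same genes. Leaving it out lowers their shared spread, so these calls are not independent of that choice. The 4 differences were also called when each comparison was fitted on its own 6 libraries. At 1 μM the adjusted p-values were then 1.4e-08 for NFKBIA and 3.4e-08 for TNFAIP3. How far such small fits use a gene's own spread was not checked, so their calls are a description only.

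In the fit of all 18 libraries the other target genes were not called at these doses. BIRC3 was at 20.5, 23.2 and 24.7 CPM in FUCO-0.5, above every Model library, and at 20.5, 30.0 and 14.6 CPM in FUCO-1, with log2 fold changes of 0.60 (95% confidence interval 0.16 to 1.04, adjusted p = 0.22) and 0.53 (0.092 to 0.97, adjusted p = 0.19), neither of them called in that fit. When each comparison was fitted on its own 6 libraries, BIRC3 was called higher at both doses (adjusted p = 0.0022 and 0.0025). The limit given above for such small fits holds here too. The lowest FUCO-1 library (14.6 CPM) lay within the range of Model (12.89 to 16.08 CPM). ICAM1 ran from 191 to 295 CPM in FUCO-0.5 and from 194 to 268 CPM in FUCO-1, overlapping Model widely. TNFAIP2 ran from 138 to 182 CPM and from 120 to 150 CPM, and its interval against Model at 1 μM was -0.22 to 0.18. The subunit genes overlapped Model at both doses as well, with intervals of -0.16 to 0.15 and -0.18 to 0.13 for RELA.

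Against Con, which enters these comparisons as it did the first, 7 of the 10 genes were called higher in FUCO-0.5 (10.4% of all genes) and 5 in FUCO-1 (8.22%), and none lower. BIRC3, ICAM1, TNFAIP2, NFKB2 and NFKB1 were higher at both doses, with log2 fold changes of 2.44 and 2.37 for BIRC3, 0.85 and 0.75 for ICAM1, 0.89 and 0.69 for TNFAIP2, 0.56 and 0.63 for NFKB2 and 0.30 and 0.27 for NFKB1. NFKBIA and TNFAIP3 were called in FUCO-0.5, at 0.56 (adjusted p = 0.036) and 0.76 (adjusted p = 0.030), and not in FUCO-1, at 0.39 (adjusted p = 0.16) and 0.59 (adjusted p = 0.10). Both FUCO-1 differences were called without FUCO-2 replicate 2 (adjusted p = 0.0092 for NFKBIA and 0.00070 for TNFAIP3), without Con replicate 1 (0.049 and 0.028) and with 2 groups only (0.021 and 0.0048). The limits given above for leaving out FUCO-2 replicate 2 and for fits of 2 groups hold here too. Both calls in FUCO-0.5 were lost with DESeq2 (adjusted p = 0.12 and 0.081) and without Con replicate 2 or 3 or FUCO-0.5 replicate 2 or 3 (adjusted p up to 0.14), and that of TNFAIP3 without FUCO-0.5 replicate 1 (0.056) as well. The call of NFKB1 was lost without Con replicate 2 or 3 at both doses (adjusted p from 0.081 to 0.15), in FUCO-0.5 also without its replicate 3 (0.14), and in FUCO-1, where it was 0.048, also without 9 other libraries, with RLE factors (0.051) and with the replicate block (0.051).

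**Figure D3:**
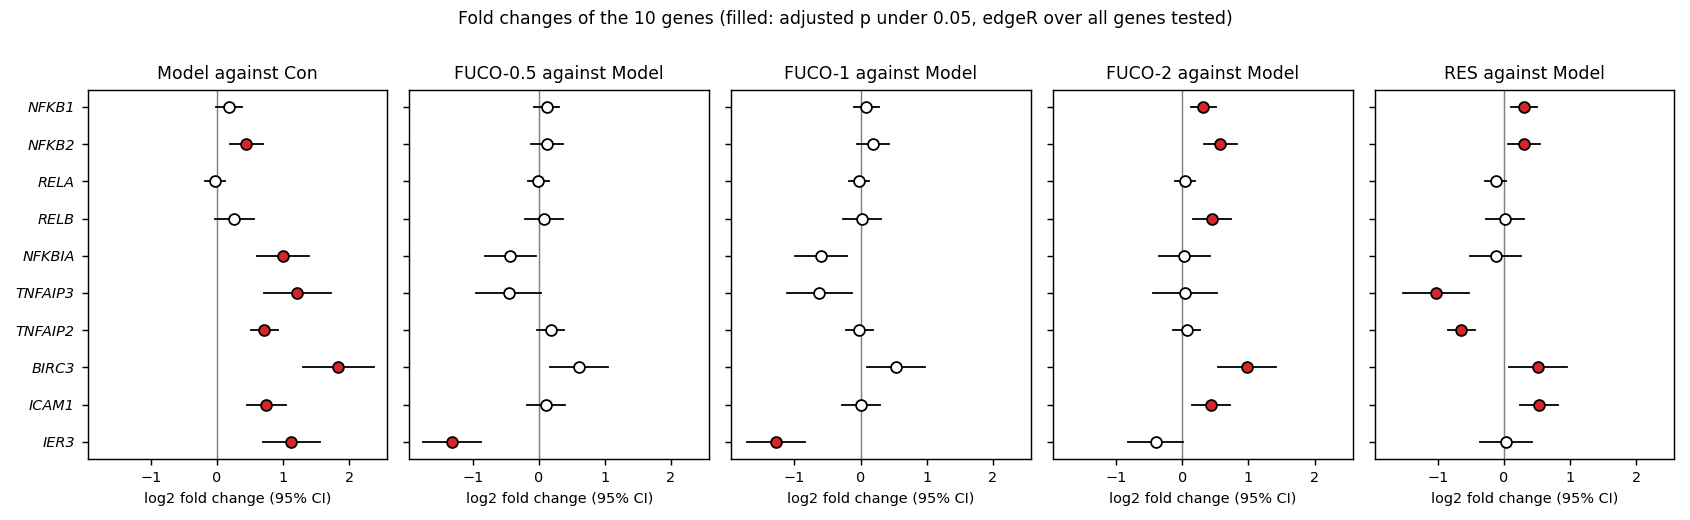
Log2 fold change (horizontal axis) with its 95% confidence interval for the 10 genes in 5 comparisons, filled where the adjusted p was under 0.05. Model against Con has 7 filled points to the right of 0, the 2 lower FUCO doses have IER3 alone to the left, FUCO-2 has 5 to the right, and RES has TNFAIP3 and TNFAIP2 to the left and 4 genes to the right.

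At 2 μM FUCO several subunit and target genes were above Model, and 5 of the 10 genes were called higher (10.8% of all genes) and none lower (9.71%). None of the 10 passed the fold threshold, which 1.6% of all genes did. The median log2 fold change of the 10 genes was 0.19, against 0.0096 over all genes. The summed hepatoma markers of FUCO-2 lay below those of every Model library, as given above.

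NFKB2 was at 85.5, 86.2 and 69.9 CPM in FUCO-2, above all Model libraries (log2 fold change 0.58 ± 0.12, adjusted p = 0.0012). NFKB1 was at 68.9, 83.0 and 63.0 CPM (0.32 ± 0.094, adjusted p = 0.018) and RELB at 52.1, 43.5 and 36.3 CPM (0.45 ± 0.14, adjusted p = 0.023), both also clear of Model. RELA was at 134, 112 and 111 CPM and was not called (0.036, 95% confidence interval -0.12 to 0.19). Of the 4 subunit genes, then, 3 were called higher.

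BIRC3 reached 23.7, 41.6 and 23.1 CPM, its highest mean in any group (log2 fold change 0.98 ± 0.21, adjusted p = 0.0018). ICAM1 was at 316, 341 and 236 CPM (0.44 ± 0.14, adjusted p = 0.028), and its lowest library fell within the range of Model. TNFAIP2, at 153, 152 and 128 CPM, and IER3, at 12.96, 14.59 and 8.62 CPM, overlapped Model and were not called.

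For the inhibitors the 3 FUCO-2 libraries lay on both sides of Model. NFKBIA was at 131, 276 and 121 CPM and TNFAIP3 at 41.5, 120 and 43.0 CPM, so replicate 2 was above every Model library while replicates 1 and 3 were below every one. Replicate 2 had 2.19 times the mean of the others for NFKBIA, 2.83 times for TNFAIP3 and 1.78 times for BIRC3. With all libraries the log2 fold changes against Model were 0.031 (95% confidence interval -0.35 to 0.42) for NFKBIA and 0.039 (-0.45 to 0.53) for TNFAIP3.

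The same library was not high in general. It lay more than 1.5-fold above both other FUCO-2 libraries for 0.852% of all genes tested, a share between 0.501% and 2.51% being found in the 18 libraries, and for 3 of the 10 genes described here. Among 28 further NF-κB targets that were tested, it was high by that measure for 6, which were named after their values were seen. These were the chemokine genes CXCL8, CXCL1, CXCL2, CXCL3 and CCL20 and the receptor gene TNFRSF9. Of these, TNFRSF9 had few counts, at 0.230, 0.905 and 0.289 CPM in replicates 1, 2 and 3. CXCL8, for example, was at 122, 341 and 125 CPM. Of 18 other subunit and inhibitor genes it was high for NFKBIZ, and for none of 25 adaptor and kinase genes or 13 ligand and receptor genes. What set this library apart was not tested.

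Without replicate 2, 2 of the 10 genes were called higher in FUCO-2 than in Model (7.34% of all genes) and 2 lower (6.61%). NFKBIA and TNFAIP3 were then the lower pair, with log2 fold changes of -0.45 (adjusted p = 0.010) and -0.65 (adjusted p = 0.0011). Replicate 2 was singled out by its own values for these genes, so their calls without it are not independent of that choice. NFKB2 (0.52, adjusted p = 0.0086) and BIRC3 (0.64, adjusted p = 0.030) were higher with and without replicate 2. The calls of NFKB1 (0.20, adjusted p = 0.17), RELB (0.46, adjusted p = 0.052) and ICAM1 (0.33, adjusted p = 0.15) were lost. RELB and ICAM1 were also lost without FUCO-2 replicate 1 (adjusted p = 0.13 and 0.069) or Model replicate 1 (0.061 and 0.11), and all 3 without Model replicate 3 (0.098 for NFKB1, 0.11 for RELB and 0.10 for ICAM1). With DESeq2 the adjusted p of ICAM1 was 0.074.

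**Figure D4:**
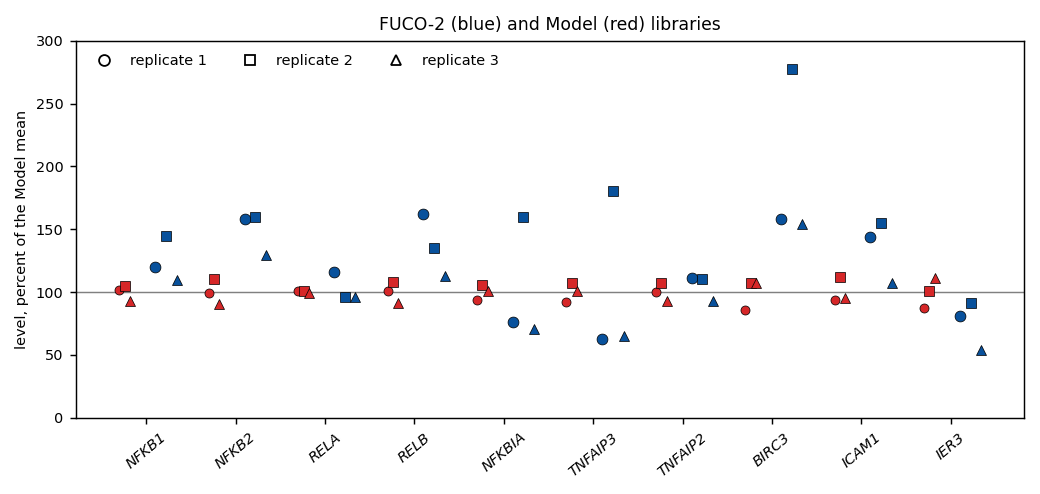
Level of each gene in the 3 FUCO-2 libraries (blue) and the 3 Model libraries (red) in percent of the Model mean (vertical axis, from 0), with the replicate given by the shape. For NFKBIA and TNFAIP3, FUCO-2 replicate 2 (square) stands at 160% and 180% while replicates 1 and 3 average 73.2% and 63.6%, and for NFKB2 all 3 blue points are above the red.

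Against Con, FUCO-2 had 9 of the 10 genes called higher (13% of all genes), all but RELA, with log2 fold changes from 0.50 for NFKB1 to 2.81 for BIRC3. The call of IER3 (0.72) was lost without FUCO-2 replicate 2 (adjusted p = 0.10), Con replicate 2 (0.085) or Con replicate 3 (0.071). Between the doses, FUCO-2 against FUCO-1, 3 of the 10 were called higher (4.07% of all genes), namely IER3 (0.87, adjusted p = 0.016), NFKBIA (0.63, adjusted p = 0.046) and NFKB2 (0.39, adjusted p = 0.047). This count ran from 0 to 6 as single libraries were left out, and FUCO-2 replicate 2 was the only FUCO-2 library with NFKBIA far above the FUCO-1 range.

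RES against Model asks what the comparator drug did under the same load. It moved much of the transcriptome, with 24.4% of all genes called higher and 25.1% lower, so 4 of the 10 genes higher and 2 lower is near the background. The pattern among the 10 was mixed, and TNFAIP3 alone passed the fold threshold (9.91% of all genes). The summed hepatoma markers differed between these groups too, as given above.

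TNFAIP3 was at 32.6, 32.9 and 32.2 CPM with RES, within the range of Con and below all Model libraries. The log2 fold change was -1.03 ± 0.24 (adjusted p = 0.0011) against Model and 0.19 (95% confidence interval -0.33 to 0.71) against Con. TNFAIP2, at 89.6, 81.9 and 92.1 CPM, was likewise at the level of Con, with -0.65 ± 0.099 (SE; adjusted p = 7.5e-06) against Model and 0.065 (-0.14 to 0.27) against Con. Its 3 values in RES overlapped those of Con and lay far from Model.

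The other targets and NFKBIA stayed above the range of Con. NFKBIA was at 152, 152 and 171 CPM, overlapping Model (-0.12, 95% confidence interval -0.51 to 0.26), and IER3 at 18.9, 13.8 and 16.3 CPM (0.035, -0.36 to 0.43). ICAM1 was at 310, 296 and 344 CPM, above all Model libraries and its highest mean of any group (log2 fold change 0.53 ± 0.14, adjusted p = 0.0029). BIRC3 was at 22.1, 16.7 and 25.1 CPM (0.51 ± 0.21, adjusted p = 0.048), a call that was lost with DESeq2 (adjusted p = 0.14) and without any Model library, RES replicate 1 or 3, FUCO-0.5 replicate 1 or FUCO-1 replicate 1 (adjusted p up to 0.19).

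Of the subunits, NFKB1 (72.8, 66.3 and 72.9 CPM) and NFKB2 (64.6, 64.2 and 70.6 CPM) were called higher with RES than in Model, each with a log2 fold change of 0.30 and with adjusted p-values of 0.010 and 0.039. The NFKB2 call was lost when any RES library or Model replicate 1 or 3 was left out (adjusted p up to 0.16), and the NFKB1 call without Model replicate 3 (adjusted p = 0.061). RELB, at 30.7 to 33.8 CPM, overlapped Model, and RELA, at 104 to 110 CPM, lay below all Model libraries by a log2 difference of 0.13 that was not called (adjusted p = 0.16).

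Against Con, RES had 6 of the 10 genes higher (28.8% of all genes) and none lower. They were BIRC3 (2.35), ICAM1 (1.27), IER3 (1.16), NFKBIA (0.87), NFKB2 (0.74) and NFKB1 (0.48), given as log2 fold changes. Whether the effects of RES and FUCO on a gene differ was not tested.

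Ordered by mean level, the groups lined up differently from gene to gene. For TNFAIP3 the order was Con, RES, FUCO-1, FUCO-0.5, Model and FUCO-2, in which Con and RES overlapped, as did Model and FUCO-2, while the other neighbors did not. The place of FUCO-2 rests on replicate 2 (120 CPM), since the mean of its replicates 1 and 3 was 42.3 CPM, below FUCO-1 (43.2 CPM). For IER3 it was FUCO-0.5, FUCO-1, Con, FUCO-2, Model and RES, with every pair of neighbors overlapping. For ICAM1 it was Con, Model, FUCO-1, FUCO-0.5, FUCO-2 and RES, with a gap only between Con and Model. For TNFAIP2 Con and RES stood together below the other 4 groups.

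Across the 18 libraries the genes followed different companions among 13076 genes with a mean of at least 1 CPM. Pearson correlations of log2 CPM are given as a description, since libraries of 1 group share a treatment. The 3 genes most like NFKBIA were the chemokine genes CXCL8 (r = 0.95), CXCL3 (0.93) and CXCL2 (0.92). For TNFAIP3 they were RND1 (0.95), CXCL1 (0.88) and CCL20 (0.86), and for TNFAIP2 CXCL6 (0.96), WWC1 (0.95) and C1S (0.94). For IER3 they were MYC (0.93), TCIM (0.91) and PHLDA1 (0.90).

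Apart from RELA the subunits correlated with one another (r from 0.77 to 0.91). NFKB1 and NFKB2 correlated at least as closely with the target gene ICAM1 (0.93 for both). NFKB1 was most like ICAM1 (0.93), NFKB2 (0.91) and MIR4435-2HG (0.91), NFKB2 most like SYT12 (0.94), MT2A (0.93) and ICAM1 (0.93), and RELB most like TEAD4 (0.91), CSF1 (0.89) and NFKB2 (0.88). RELA was most like LRP3 (0.93), CAPN15 (0.92) and KHSRP (0.92), and its r with NFKB1 was -0.17. BIRC3 was most like TRIP13 (0.95), CXCL5 (0.94) and CCT6A (0.93), and ICAM1 most like PREP (0.95), TNFRSF21 (0.95) and SH3BP4 (0.93).

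The rest of the pathway was followed in 4 lists with 100 genes, of which 84 were tested. These lists too were drawn up with earlier results of these data known. In Model against Con, 13 of 28 other targets were called higher and 1 lower, with a list median log2 fold change of 0.60 against 0.0011 over all genes. Of 18 other subunits and inhibitors 4 were higher and 1 lower, of 25 adaptors and kinases 4 and 3, and of 13 ligands and receptors 1 and 0. The medians of these 3 lists were -0.0060, -0.0025 and -0.063. Over all genes 8.43% were called higher and 9.12% lower, and whether the lists differ from one another was not tested.

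Among the called genes, the IκB kinase relative IKBKE rose from 8.28 ± 1.55 to 24.4 ± 1.40 CPM (SD, n = 3; log2 fold change 1.56), and ZC3H12A, whose product degrades inflammatory mRNAs, from 19.5 ± 5.48 to 59.3 ± 1.55 CPM (1.60). The iron-binding protein gene LCN2 was at 0.213 ± 0.185 CPM in Con and 5.86 ± 1.56 CPM in Model, and the chemokine gene CXCL10 at 0.515 ± 0.255 and 3.02 ± 0.858 CPM. The nuclear inhibitor gene NFKBIZ rose from 260 ± 14.4 to 398 ± 12.1 CPM (0.62, adjusted p = 0.0037), the adaptor gene MYD88 from 32.3 ± 2.09 to 41.8 ± 0.379 CPM (0.37) and the receptor gene TNFRSF11A from 1.89 ± 0.437 to 3.58 ± 0.493 CPM (0.92). Of the 5 genes called lower in these lists, the naming rule picks RBCK1 (-0.52) and TAB3 (-0.37) among the 3 adaptors and kinases, TRAF1 (-0.50) and EFNA1 (-0.39).

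At the lower FUCO doses the called targets were lower, 4 of 28 at 0.5 μM and 5 of 28 at 1 μM, and none was higher. Over all genes 1.16% were called lower and 0.289% higher at 0.5 μM, and 2.32% and 0.893% at 1 μM, so calls in general leaned lower and 0 higher is near the background. CXCL8, which encodes a neutrophil chemokine, went from 248 ± 48.3 CPM in Model to 110 ± 13.4 CPM at 0.5 μM (log2 fold change -1.17, adjusted p = 0.038) and 79.8 ± 31.3 CPM at 1 μM (-1.64, adjusted p = 0.0015). GADD45B, a stress response gene, went from 87.2 ± 12.0 CPM to 37.4 ± 2.02 CPM (-1.22) and 32.8 ± 3.40 CPM (-1.41). NFKBIZ was lower at both doses, by -0.62 (adjusted p = 0.021) and -0.67 (adjusted p = 0.0067).

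Few upstream genes were called at these doses. TNFRSF12A was lower at 0.5 μM (-0.47, adjusted p = 0.046), and IL1RAP (-0.44) and RNF11 (-0.27) were lower and TRAF2 (0.34) and TRAF1 (0.55) higher at 1 μM. At 2 μM, where 10.8% of all genes were called higher and 9.71% lower, 8 of 25 adaptors and kinases were higher, led by TRAF5 (0.54) and TRAF2 (0.49), and 3 lower, led by MYD88 (-0.39) and RIPK1 (-0.34). Of the 28 other targets 5 were higher and 3 lower, with CSF1 (0.82) and LCN2 (0.86) at one end and GADD45B (-0.89) and EFNA1 (-0.41) at the other. Among the other subunits and inhibitors TRAF1 (0.67) and NFKBIE (0.52) were the leading ones of 3 that were higher, and CYLD (-0.34) and RNF11 (-0.26) were lower. LTBR (0.26) was higher and IL1RAP (-0.61) lower among ligands and receptors.

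With RES, where 24.4% of all genes were called higher and 25.1% lower, the counts of these lists are mostly near the background. Of the 28 targets 8 were higher and 11 lower, with IRF1 (1.28) and LCN2 (1.23) leading the first and CXCL10 (-1.42) and MAP3K8 (-1.40) the second. Of the 13 ligands and receptors 3 were higher, led by TNFRSF11A (0.80) and TNFRSF1A (0.46), and 6 lower, led by LTB (-1.46) and IL1RAP (-1.34). Among adaptors and kinases 4 were higher, led by TBK1 (0.56) and IKBKG (0.37), and 4 lower, led by TAB3 (-1.17) and MALT1 (-0.72). Of the other subunits and inhibitors 3 were higher, led by TAX1BP1 and COMMD1 (both 0.44), and 3 lower, led by ZC3H12A (-0.41) and BCL3 (-0.34).

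**Figure D5:**
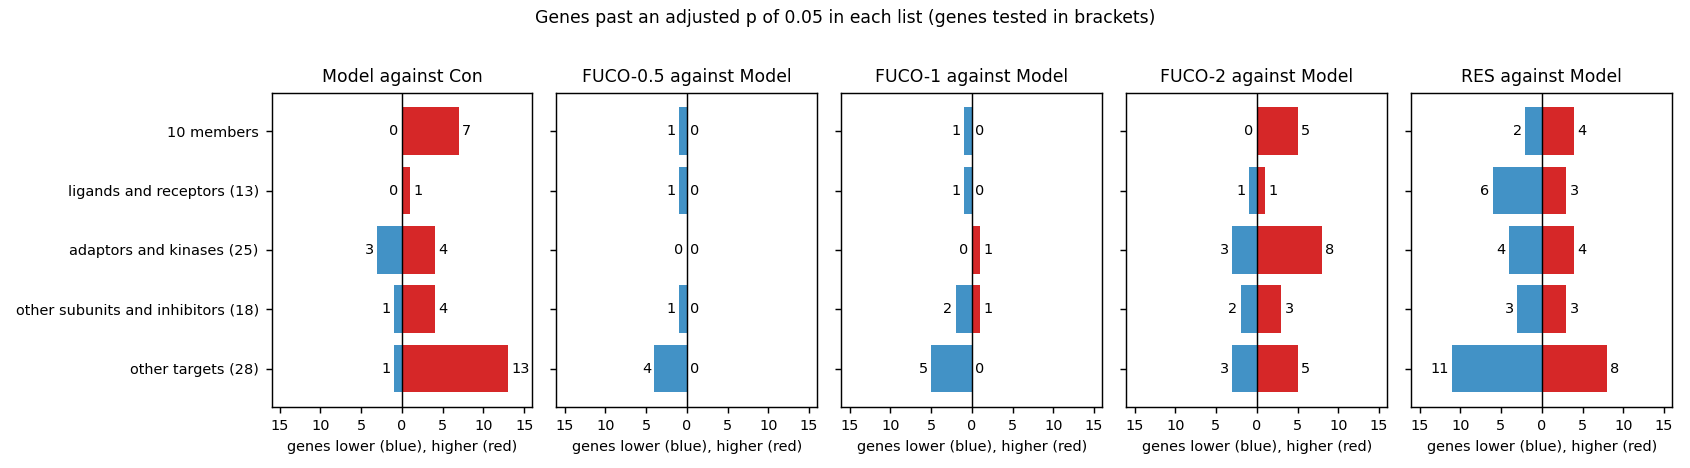
Number of genes called lower (blue, left) and higher (red, right) at an adjusted p under 0.05 in the 10 genes and in 4 further pathway lists, with the number tested in brackets, in 5 comparisons. The other targets have 13 higher and 1 lower in Model against Con, 0 higher and 4 or 5 lower at the 2 lower FUCO doses, and calls in both directions at 2 μM FUCO and with RES.

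The cytokine genes that the study measured by other means were too low to test. For IL6 the paper's text names only THLE2, another human hepatic cell line, while the counts here are of Hep3B. TNF had 1 count in 1 FUCO-0.5 library and 0 in the other 17, IL6 had at most 2 counts in any library, CCL2 at most 4 and IL1B at most 5. A difference in these genes was not detectable at this depth, where 3 counts are worth between 0.121 and 0.179 CPM.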

How the data were processed

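Raw counts per gene of 18 RNA-seq libraries were used. After polyA selection and paired-end sequencing, the authors used fastp for trimming, STAR for alignment to GRCh38.p14 and featureCounts for counting, and deposited the counts without normalization (tool names also per the submitters' processing notes). Strand setting and treatment of reads with several matches are not given in the sources used here. Libraries were grouped by title, and the numbered columns were matched through the library names in the labels.

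Counts were fitted in R 4.3.3 with edgeR 4.0.16 (filterByExpr, minimum count 10 and minimum total 15, TMM factors, quasi-likelihood test, 1 term per group, prior count 0.125). The 14557 genes tested held 99.9% of all counts. P-values were Benjamini-Hochberg adjusted over all genes tested, within each of 10 comparisons. Standard errors are the log2 fold change over the root of its F statistic. Levels are CPM after TMM. Alternatives were RLE factors, no filter, DESeq2 1.42.0, fits of 2 groups only, a replicate block and leaving out each library. The script was checked on simulated counts. Reads carry no molecular identifiers, so floors cover counting error only.

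The 10 genes and the pathway and marker lists were chosen with earlier results of these data known. From each pathway list the text names, per comparison, up to 2 called genes with the largest rise and 2 with the largest fall at a mean of at least 1 CPM, and for each of the 10 genes the 3 with the highest correlation. TNF, IL6, CCL2 and IL1B were named as genes the study measured. Gene positions and promoter windows came from RefSeq, and strands, exons and exon overlaps from a GENCODE annotation, both GRCh38.p14.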

Additional observations from a re-analysis of the deposited data

How the results depend on the processing

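Over the 130 fold changes and counts of calls and 23 alternatives, no gene called in the reported fit changed direction. The count of the 10 genes called became 4 in FUCO-0.5 and 4 in FUCO-1 against Model (reported: 1 each) both without the filter on low counts and with 2 groups only, and without the filter 8 in FUCO-1 against Con and 7 in FUCO-2 against FUCO-1. Except for FUCO-2 against Model without FUCO-2 replicate 2, shares of all genes called under the alternatives are not given here. Whether the 10 genes gained or lost more calls than genes in general can therefore not be told. Without the filter 24090 genes were fitted and the median degrees of freedom rose from 24.4 to 289100, so p-values there hardly use a gene's own spread. For the fits of 2 groups only, the degrees of freedom were not recorded.

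Leaving out single libraries, the count ran from 1 to 3 in FUCO-0.5 and in FUCO-1 against Model, from 2 to 5 in FUCO-2 against Model, from 3 to 6 in RES against Model, from 4 to 8 in FUCO-0.5 against Con and from 0 to 6 in FUCO-2 against FUCO-1. Log2 fold changes that were not called crossed 0. Against Model at 0.5 μM these were NFKB2 (-0.037 to 0.21), RELA (-0.048 to 0.032), RELB (-0.11 to 0.21) and ICAM1 (-0.081 to 0.24). At 1 μM they were RELA (-0.071 to 0.012), RELB (-0.11 to 0.13), TNFAIP2 (-0.093 to 0.068) and ICAM1 (-0.16 to 0.089). At 2 μM they were RELA (-0.058 to 0.082), NFKBIA (-0.45 to 0.24) and TNFAIP3 (-0.65 to 0.30), and with RES RELB (-0.043 to 0.076) and IER3 (-0.084 to 0.14). Against Con they were RELA (-0.079 to 0.00086) and IER3 (-0.49 to 0.063) at 0.5 μM, IER3 (-0.31 to 0.10) at 1 μM and RELA (-0.089 to 0.051) at 2 μM. In FUCO-2 against FUCO-1 they were RELA (-0.033 to 0.11) and TNFAIP3 (-0.031 to 0.92). RELA in FUCO-2 against Con was also at -0.0012 with RLE factors and -0.00095 with DESeq2.

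Deviations of same-numbered libraries from their group means correlated weakly (45 pairs, r from -0.20 to 0.19, median 0.024). For libraries with different numbers r ran from -0.28 to 0.29 (90 pairs, median -0.023). Correlations this weak cannot show whether the numbers pair the samples, and the labels do not say. With a replicate block 7 of the 10 genes were called in Model against Con and 4 in FUCO-1 against Con, where the reported fit had 5, and no count moved by over 1.5 times. ICAM1 at 1 μM (-0.0020), NFKBIA (-0.0043) and TNFAIP3 (-0.019) at 2 μM, all against Model, were then just below 0. Apart from the library named in the report, the cause of these shifts was not tested.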
